A study of Xenopus laevis with 20 samples.

Results

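The comparison described here asked what the Wnt antagonist Dkk-1 added to tissue that already made the BMP antagonist Noggin, in late gastrulation of *Xenopus laevis*. It rests on 4 arrays of the 20 in the series, chosen by their titles. Ventral explants of embryos injected with *noggin* and *dkk-1* plasmid (**Nog+Dkk**) were set against those of embryos injected with *noggin* plasmid alone (**Nog**), at stage 11.5, in clutches 3 and 4. All mixtures also held *eGFP* mRNA as a tracer of the injected side, and each went into the marginal zone of 1 ventral blastomere during early cleavage. The plasmids become active only when zygotic transcription begins. The same clutches gave 3 reference groups, namely ventral explants that received *dkk-1* plasmid (**Dkk**), and ventral (**Ven**) and dorsal explants (**Dor**) of embryos that received *eGFP* mRNA only. Ventral explants with the **Nog** and **Nog+Dkk** mixtures at stage 10, from clutches 1 and 2, served to compare the stages. Embryos stayed whole until the stage given. They were then cut between the dorsal and the ventral side, and the parts, here termed explants, were frozen without culture. Each sample pooled 10 explants of 1 clutch, so every group had 2 arrays and the clutch is the unit of replication. An explant holds all germ layers as well as injected and uninjected cells. At stage 11.5 it was cut by its fluorescence, since no landmark of the surface marks the dorsal side. In such samples fewer cells that express a gene and less RNA per cell cannot be told apart. The mixture of **Nog+Dkk** carried both plasmids, so Dkk-1 and a larger total of plasmid cannot be told apart.

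Canonical Wnt signals act through Frizzled receptors and the co-receptors LRP5 and LRP6 to stabilise beta-catenin, which then works with TCF and LEF factors on target genes. Dkk-1 is a secreted protein that binds LRP5 and LRP6, and together with the Kremen receptors it takes them off the cell surface. In the frog gastrula, ventral and lateral Wnt8 favours posterior fates, and the Spemann organizer on the dorsal side secretes antagonists against it. The organizer also secretes the BMP antagonists Noggin and Chordin, which permit dorsal and neural fates. Noggin on the ventral side is known to induce a trunk axis, and a head forms when a Wnt antagonist is added.

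The values are intensities that the authors normalized with RMA, 1 value for each probe set and array. They were log2 transformed here, and the array medians at stage 11.5 lay between 6.65 and 6.69. Control probe sets were removed, which left 15491 probe sets. Limma was fitted to the arrays of all 10 groups with the clutch as a block. An adjusted p (Benjamini-Hochberg over all probe sets) below 0.1 is termed a call, and a gene is said to have risen or fallen only where it was called. Differences are **Nog+Dkk** minus **Nog** on the log2 scale, as means of 2 clutches with limma's standard error (SE). The p-values rest on a spread pooled over the arrays of all 10 groups at both stages, not only the 4 arrays compared. With 2 clutches per group, that spread is one between these samples and may be technical in part.

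Both injected genes have probe sets on the array. *Dkk1.S* stood at 4.89 and 5.92 in **Nog** of clutches 3 and 4 (in that order, as throughout) against 8.09 and 7.74 in **Nog+Dkk**. The 2 **Nog+Dkk** arrays were far above both **Nog** arrays, and the gap was wider in clutch 3 (3.2) than in clutch 4 (1.83), where the **Nog** array was higher. On average *dkk1.S* rose by 2.51 (SE 0.328, adjusted p = 0.00108), a 5.7-fold change. **Dor** tissue, which holds the endogenous source of this gene, had 7.57 and 7.22, so each **Nog+Dkk** array lay above the dorsal array of its clutch. The parts of plasmid and endogenous transcript in the *dkk1.S* values were not tested. *Noggin* was supplied to both groups. Its probe set *nog.L* read 5.16 and 5.61 in **Nog** against 5.25 and 5.75 in **Nog+Dkk**, a difference of 0.11 (SE 0.115, 95% interval -0.13 to 0.35, adjusted p = 0.893). In **Dor** it was 6.53 and 7.25. Whether this probe set reads the transcript of the plasmid was not tested, so these values do not measure the supply of Noggin.

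With Dkk-1 added to Noggin, 70 probe sets were called higher (0.452% of those tested) and 32 lower (0.207%). All 102 moved in the same direction in both clutches, which 25% of all tested probe sets did upward and 30% downward. In 57 of the 70 and 28 of the 32 the groups did not overlap, as in 8.84% (higher) and 11.1% (lower) of all probe sets. A call rests on the mean of the same 2 differences, so these counts follow in part from the call and are no separate support. Over all probe sets the differences of both clutches correlated at 0.264. The raised probe sets had a median difference of 0.71, from 0.41 to 2.51, and 14 of them changed at least 2-fold, out of 15 such probe sets on the array (0.0968%). The lowered ones had a median of -0.78, from -1.44 to -0.50, with 9 at least 2-fold down, out of 11 (0.071%). The remainder of the transcriptome moved little, with 99.3% of all probe sets within 1.5-fold. Among the called probe sets the difference was larger in clutch 3 for 47 of the 70 and 22 of the 32, and 57.5% of all probe sets were also further from 0 in that clutch. Of the 70, 55 carry 1 gene symbol and 12 have no name, and of the 32 these numbers are 24 and 3. Rank products of the same pairs, at a false discovery rate of 10%, gave 49 higher (0.316%) and 46 lower (0.297%) probe sets. They included 44 of the 70 (62.9%; 89.8% of the 49) and 29 of the 32 (90.6%; 63.0% of the 46). The calls rest on the pairing by clutch. Without the clutch term limma called 0 probe sets, with 241 at an unadjusted p under 0.05, beside 995 (6.42%) with it. When the **Nog+Dkk** array of clutch 3 was left out, 17 were called higher and 4 lower.

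**Figure D1:**
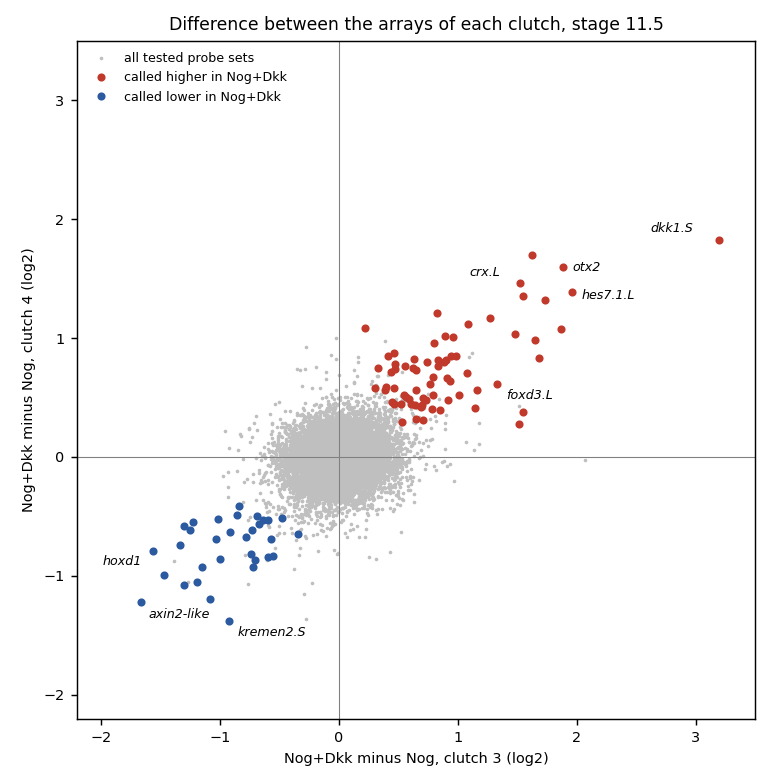
Difference between the **Nog+Dkk** and the **Nog** array of clutch 3 (horizontal axis, log2) and of clutch 4 (vertical axis, log2) for each of the 15491 probe sets (grey points). The 70 called higher (red) lie to the upper right and the 32 called lower (blue) to the lower left, with *dkk1.S* at 3.2 and 1.83.

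Most of the largest rises beside *dkk1.S* itself belonged to genes of the head organizer and the anterior neuroectoderm. The *otx2* gene, a homeobox gene needed for forebrain and midbrain, was read by 4 probe sets, and all 4 rose, by 1.22 to 1.74. In *otx2.S* the levels were 7.31 and 7.92 in **Nog** against 8.93 and 9.62 in **Nog+Dkk**. Both **Nog+Dkk** arrays stood clear of both **Nog** arrays, a rise of 1.66 (SE 0.195, adjusted p = 0.000342) or 3.16-fold. The *otx*-family gene *crx* changed alike in both clutches. For *crx.L* the **Nog** arrays read 8.66 and 8.94, close to the 8.59 and 9.2 of **Ven**, and the **Nog+Dkk** arrays 10.18 and 10.40. It rose by 1.49 (SE 0.125, adjusted p = 9.5e-06), and its homeolog *crx.S* rose by 1.45 (SE 0.127, adjusted p = 9.88e-06) and by 1.02 in a second probe set. Another member, *otx1.L*, went from 8.79 and 8.70 to 9.70 and 9.37, a rise of 0.79 (SE 0.135, adjusted p = 0.00955). All probe sets named *otx1*, *otx2* or *crx* above were thus higher with Dkk-1 than without it.

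Some other transcription factors of the anterior territory rose. The level of *hesx1.L*, a repressor of the anterior neural border, was 4.48 and 4.54 in **Nog** against 5.47 and 5.39 in **Nog+Dkk**, a rise of 0.92 (SE 0.147, adjusted p = 0.00598) with no overlap. Both groups were dim for this probe set, below the array medians. *Lhx5.S*, a LIM homeobox gene of the forebrain, rose by 0.73 (adjusted p = 0.00267), and *lhx1.L*, a LIM homeobox gene of the organizer, by 0.63 (adjusted p = 0.0525). The homeolog *hesx1.S* and a second *lhx5.S* probe set differed by 0.26 (adjusted p = 0.82) and 0.62 (adjusted p = 0.256) and were not called. *Goosecoid*, an organizer homeobox repressor, was low on all 4 arrays. *Gsc.L* had 5.11 and 5.06 in **Nog** against 5.94 and 5.82 in **Nog+Dkk**, a rise of 0.80 (SE 0.183, adjusted p = 0.071), while **Dor** had 7.54 and 7.41. The call was lost whichever array was left out, and the 3 other *gsc* probe sets were not called, with differences from -0.22 to 0.64.

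Genes for secreted and membrane proteins of the organizer and the anterior region were also among the rises. *Admp.S*, a BMP-family ligand made by the organizer, was 7.66 and 8.51 in **Nog** against 9.39 and 9.82 in **Nog+Dkk**. The groups were separate, with a rise of 1.52 (SE 0.215, adjusted p = 0.002), and a second probe set gave 1.32 (adjusted p = 0.0368). *Chordin* encodes a BMP antagonist of the organizer. *Chrd.1.S* read 7.34 and 8.34 in **Nog** against 8.82 and 9.37 in **Nog+Dkk**, so clutch 4 was higher in both groups. It rose by 1.26 (SE 0.235, adjusted p = 0.0205), and its second probe set gave 1.00 (adjusted p = 0.111), which missed the threshold. The *chrd.1.S* call was lost without clutch 3, and without its **Nog** or its **Nog+Dkk** array alone. The call of the second *admp.S* probe set was lost in these settings and without the **Nog+Dkk** array of clutch 4. The Wnt receptor gene *fzd8.S*, expressed in the anterior neural plate, rose from 5.84 and 6.87 to 7.52 and 7.71, by 1.26 (SE 0.193, adjusted p = 0.00413). This call was lost without clutch 3 and without its **Nog+Dkk** array alone. A further *fzd8.S* probe set and the *fzd8.L* probe set differed by 0.28 and -0.05 and were not called. The Nodal ligand gene *nodal.L*, named after its values were seen, was 4.47 and 4.63 in **Nog** against 5.55 and 5.33 in **Nog+Dkk**. It rose by 0.89 (SE 0.172, adjusted p = 0.0269), from a level close to the dim end of the array.

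Over the list of 23 head organizer and anterior genes, 43 probe sets of 21 genes were measured. Of these, 18 rose and 0 fell, 25 were not called, and the median difference was 0.48 beside -0.01 over all probe sets. Among the 29 with a mean log2 value of at least 6, 15 rose and the median was 0.73. The list includes *dkk1.S*, which was injected, and many of its genes were assigned by the study from these samples, so the count is not independent evidence of a direction. Leaving out single arrays gave 10 to 15 rises in this list, the lowest without the **Nog+Dkk** array of clutch 3, and the median stayed between 0.42 and 0.60. Part of the list showed no rise. *Cer1.S*, which encodes the head inducer Cerberus, was 9.73 and 9.81 in **Nog** against 9.68 and 9.95 in **Nog+Dkk**, a difference of 0.04 (95% interval -0.34 to 0.42). Differences of *frzb.L* and *frzb.S*, secreted Wnt antagonists, were 0.09 and 0.25, and those of the homeobox genes *hhex.L*, *six3.L* and *rax.S* (1 probe set of each) were -0.05, -0.01 and 0.07. None of these was called, and the levels of the homeobox probe sets are not given here, so a dim one is not told from an unchanged one. The related antagonist *frzb2.L* rose in 1 probe set, by 0.54 (adjusted p = 0.0544), from 3.26 and 3.85 to 3.59 and 4.59, with overlapping groups, far below the 5.90 and 6.81 of **Dor**. In 37 of the 43 probe sets the mean of **Nog+Dkk** was below that of **Dor**, with a median gap of 0.49. The same held for 14 of the 20 housekeeping probe sets, with a median gap of 0.03, and the share of all probe sets was not counted.

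**Figure D2:**
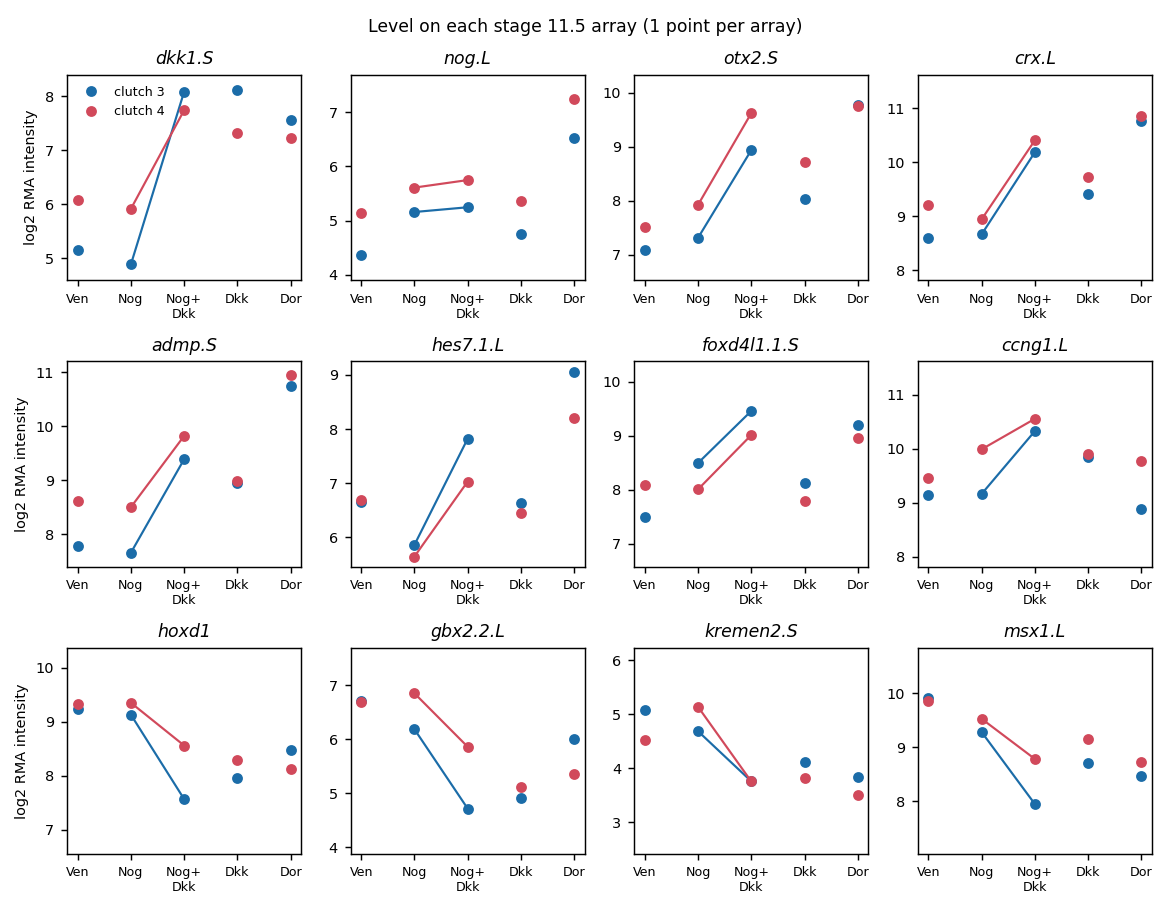
Level (log2 RMA intensity, vertical axis) of 12 probe sets on each stage 11.5 array, 1 point per array, in **Ven**, **Nog**, **Nog+Dkk**, **Dkk** and **Dor**, with lines from **Nog** to **Nog+Dkk** of the same clutch. The lines rise in both clutches for *dkk1.S*, *otx2.S*, *crx.L*, *admp.S*, *hes7.1.L*, *foxd4l1.1.S* and *ccng1.L*, fall for *hoxd1*, *gbx2.2.L*, *kremen2.S* and *msx1.L*, and are nearly level for *nog.L*.

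The bHLH repressor gene *hes7.1.L* had one of the larger rises. It was put in the list of paraxial and presomitic mesoderm genes, but whether it marks that tissue in these explants was not tested. Its level was 6.65 and 6.69 in **Ven** and lower, 5.86 and 5.64, in **Nog**. With Dkk-1 added to Noggin it was 7.82 and 7.03, whereas in **Dkk** it was 6.62 and 6.45. So both **Nog+Dkk** arrays were the highest among the ventral explants and both **Nog** arrays the lowest. In **Dor** minus **Ven** the median of this list was -0.32, whereas *hes7.1.L* differed by 1.96. The rise over **Nog** was 1.68 (SE 0.196, adjusted p = 0.000342), 3.2-fold, and a dimmer probe set of the same gene rose by 1.1 (adjusted p = 0.0145). Other *hes* genes of this list moved either way. *Hes5.2.L*, named after its values were seen, rose by 0.62 (adjusted p = 0.0416), while *hes5.6.L* fell by 0.72 (adjusted p = 0.0481) and *hes5.5.S* fell by 0.86 (adjusted p = 0.0298). The *hes5.2.S* probe set differed by 0.007 and further ones of *hes5.5.S* by -0.81 and -0.17, and none of these was called. *Msgn1.L*, a bHLH activator of presomitic mesoderm that is also in the Wnt target list and was named after its values were seen, was 9.21 and 9.07 in **Nog** against 8.48 and 8.46 in **Nog+Dkk**, a fall with separate groups (-0.67, SE 0.141, adjusted p = 0.0434). In all, 3 of the 37 probe sets of this list rose (both of *hes7.1.L* and the one of *hes5.2.L*), 3 fell, and the median was -0.12. With single arrays left out there were 1 to 3 rises and 0 or 1 fall.

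Some genes that mark the trunk organizer and the dorsal midline rose as well. *Foxd4l1.1.S*, a forkhead gene of the early neural plate, was 8.49 and 8.01 in **Nog** against 9.46 and 9.01 in **Nog+Dkk**, and **Dor** had 9.2 and 8.97. It rose by 0.98 (SE 0.185, adjusted p = 0.0205), by almost the same amount in both clutches, and in each clutch **Nog+Dkk** lay above **Dor**. *Foxd3.L*, a forkhead gene of the organizer and later of the neural crest, was 5.64 and 4.79 in **Nog** against 6.97 and 5.4 in **Nog+Dkk**. Clutch 3 stood above clutch 4, so the groups overlapped although each clutch rose (mean 0.97, SE 0.223, adjusted p = 0.071). Its homeolog *foxd3.S* gave 0.97 and just missed the threshold. The neural gene *sox2.L* rose by 0.88 (adjusted p = 0.0178) in 1 probe set and differed by 0.55 (adjusted p = 0.115) in the brighter one. *Foxa4.L*, a forkhead gene of notochord and floor plate, rose by 0.61 (adjusted p = 0.0425), *lrig3.S*, which encodes a leucine-rich repeat membrane protein, by 0.86 (adjusted p = 0.0416), and *foxd5b* by 0.69 (adjusted p = 0.0653). The homeolog *foxa4.S* and a second *lrig3.S* probe set differed by 0.52 and 0.23 and were not called. *Not.L* and *not.S*, homeobox genes of the notochord, were 0.68 and 0.46 and not called. The 5 probe sets of *fzd7.L* lay between -0.32 and 0.12. Over the list, 6 of 22 probe sets rose, 0 fell, and the median was 0.48. Genes of this list too were assigned by the study from these samples, which makes the count no independent evidence. All 22 were already higher in **Nog** than in **Ven** (median 0.36), as were 14 of the 20 housekeeping probe sets (median 0.07). In 14 of the 22 the **Nog+Dkk** means were above those of **Dor**, as in 6 of the 20 housekeeping probe sets. Without the **Nog** array of clutch 4, or the **Nog+Dkk** array of clutch 3, 0 of the 22 were called, with medians of 0.34 and 0.36, and without the **Nog+Dkk** array of clutch 4 there were 7 rises and 1 fall.

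Many of the falls belonged to genes of posterior identity. The retinoic acid and Wnt responsive gene *hoxd1* (named by the study's table, as the array annotation gives no symbol) was 9.24 and 9.32 in **Ven** and 9.13 and 9.35 in **Nog**, at nearly the same level. In **Nog+Dkk** it was 7.57 and 8.56, a fall of 1.18 (SE 0.196, adjusted p = 0.00857), or 2.26-fold. The more posterior *hoxc6.S* fell in 1 probe set, from 7.11 and 7.40 to 6.38 and 6.47 (-0.83, SE 0.178, adjusted p = 0.0525). In these probe sets of both genes every **Nog+Dkk** array lay below both **Nog** arrays. A second *hoxc6.S* probe set differed by -0.30 (adjusted p = 0.832) and was not called. *Gbx2*, a homeobox gene that opposes *otx2* at the midbrain-hindbrain boundary, fell in 3 probe sets. *Gbx2.2.L* was 6.18 and 6.85 in **Nog** against 4.71 and 5.86 in **Nog+Dkk**, a fall of 1.23 (SE 0.255, adjusted p = 0.0416), with the lowest value in clutch 3. Its second probe set gave -0.93 and *gbx2.1.S* -0.78. The zinc finger genes *znf703.L* and *znf703.S* fell by 0.78 and 0.56 (adjusted p = 0.0368 and 0.0822). Across the list of Hox, Cdx and Gbx genes and their partners, 9 of 34 probe sets fell and 0 rose. All 34 had a difference below 0, 30 of them in both clutches (30% of all probe sets were), and the median was -0.31. Most of these probe sets were dim. Only 13 of the 34 had a mean log2 value of at least 6 over the 20 arrays, and the median of those 13 was -0.63. In **Nog** 10 of the 34 were above **Ven** and 24 below, with a median of -0.07. The count fell to 1 without the **Nog** array of clutch 4 and to 0 without the **Nog+Dkk** array of clutch 3, while the medians were -0.35 in both.

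*Cyp26a1.S*, whose product degrades retinoic acid, is in no such list and was named after its values were seen. It was 9.12 and 8.82 in **Nog** against 9.95 and 9.64 in **Nog+Dkk** (0.82, SE 0.133, adjusted p = 0.00603), with separate groups, and its homeolog *cyp26a1.L* rose by 0.69 (adjusted p = 0.00603).

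Several feedback regulators and direct targets of Wnt signalling fell. *Axin2.L*, a negative regulator that rises with Wnt activity in many tissues, was 9.07 and 9.30 in **Nog** against 7.84 and 8.76 in **Nog+Dkk**. Both **Nog+Dkk** arrays were below both **Nog** arrays, clutch 3 further than clutch 4, and the fall was 0.89 (SE 0.196, adjusted p = 0.0584). Its homeolog *axin2.S* differed by -0.62 (adjusted p = 0.447) and was not called. The largest fall on the array was that of an unnamed probe set, -1.44 (SE 0.224, adjusted p = 0.00452). The study's tables give it a weak similarity to human axin 2, and it is not a member of the list. Its levels were 8.03 and 9.22 in **Nog** against 6.37 and 8.01 in **Nog+Dkk**, so the groups were separate by a narrow margin. *Kremen2.S*, which encodes a receptor for Dkk proteins, was 4.69 and 5.14 in **Nog** against 3.76 and 3.76 in **Nog+Dkk**. It fell by 1.15 (SE 0.162, adjusted p = 0.002), and both groups were dim, well below the array medians. The Wnt receptor gene *fzd10.S* went from 7.2 and 8.23 to 6.05 and 7.31 in its brighter probe set. The groups overlapped because clutch 4 was higher in both, and within clutches the mean fall was 1.04 (SE 0.207, adjusted p = 0.0347). The second probe set fell by 0.67, while the homeolog *fzd10.L* differed by -0.44 (adjusted p = 0.442) and was not called. *Sp5.S*, a zinc finger gene that is a direct Wnt target and was named after its values were seen, fell by 0.63 (adjusted p = 0.0359). Of the 25 probe sets of this list 6 fell (*axin2.L*, *kremen2.S*, both of *fzd10.S*, *sp5.S* and *msgn1.L*), and 1, the injected *dkk1.S*, rose. The differences of 20 were below 0, 18 of them in both clutches, and the median was -0.19. With single arrays left out the falls numbered 1 to 7. The lowest count came without the **Nog+Dkk** array of clutch 3, and without the **Nog** array of clutch 4 there were 2.

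The Wnt ligands themselves were not called. Of 13 probe sets 0 rose and 0 fell in limma, with a median of -0.16. The largest differences were -0.45 for *wnt5a.S*, -0.35 for *wnt3a.S* and -0.34 for *wnt5b.S*. Among 46 probe sets of Wnt receptors, antagonists and transducers 4 rose and 2 fell, and the median lay within 0.01 of 0. The rises were *fzd8.S*, the secreted Frizzled-related gene *sfrp2.S* and both homeologs of *tcf7l1*, and the falls were the *fzd10.S* probe sets. With single arrays left out there were 2 to 4 rises and 0 to 4 falls, with 0 falls without the **Nog+Dkk** array of clutch 3. *Sfrp2.S* was 7.91 and 7.2 in **Nog** against 8.65 and 8.0 in **Nog+Dkk** (0.77, SE 0.115, adjusted p = 0.00338). The repressive TCF genes *tcf7l1.S* and *tcf7l1.L*, named after their values were seen, rose by 0.67 (adjusted p = 0.00955) and 0.58 (adjusted p = 0.0188).

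Within the BMP and ventral genes, the falls came from the *msx* genes and *evx1*. *Msx1.L*, a homeobox gene of ventral and lateral tissue and the neural plate border, was 9.91 and 9.86 in **Ven**, 9.28 and 9.53 in **Nog** against 7.95 and 8.79 in **Nog+Dkk**. It thus stood lower with both antagonists than with Noggin alone (-1.04, SE 0.228, adjusted p = 0.0563), and *msx1.S* fell by 0.93 (adjusted p = 0.00955). An *msx2* probe set (named by the study's tables) and one of *msx2.L* fell by 1.14 (adjusted p = 0.0188) and 0.95 (adjusted p = 0.071). A second *msx2.L* probe set, at -0.22 (adjusted p = 0.871), was not called. *Evx1.L*, a homeobox gene of the ventral and posterior mesoderm, went from 6.28 and 6.48 to 5.5 and 5.80 (-0.73, SE 0.172, adjusted p = 0.0832). The called *msx* and *evx1.L* probe sets were the 5 falls among 47 probe sets, with 0 rises and a median of -0.13. Without the **Nog+Dkk** array of clutch 3 there were 0 falls, without the **Nog** array of clutch 4 there was 1, and without that of clutch 3 there were 2. The list as a whole was already lower in **Nog** than in **Ven**, in 39 of the 47 probe sets, with a median of -0.22. Of the 20 housekeeping probe sets 6 were lower in **Nog**, with a median of 0.07, and the share of all probe sets was not counted.

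Among 46 neural plate probe sets 4 rose and 1 fell, and the median was 0.03. Without the **Nog+Dkk** array of clutch 3 there were 0 rises and 0 falls, without the **Nog** array of clutch 4 there were 0 and 2, and with all of clutch 4 left out 1 and 5. The rises were *sox2.L*, the proneural Iroquois gene *irx1.L* (0.73, adjusted p = 0.0434), whose call was lost whichever array was left out, and both probe sets of *zic1.S* (0.60 and 0.63), a zinc finger gene of the neural plate and its border. The fall was that of *pax3.S*, a paired box gene of the lateral neural plate border. It was 7.24 and 8.0 in **Nog** against 6.05 and 6.95 in **Nog+Dkk** (-1.12, SE 0.256, adjusted p = 0.071), while 0 of the 4 *pax3.L* probe sets were called in limma, with differences of -0.92 (adjusted p = 0.494), -0.11, 0.23 and 0.23. Of the 22 probe sets of epidermis and non-neural ectoderm only *foxi1.L*, a forkhead gene of the ventral ectoderm, was called. Without either clutch 3 array 0 were called. *Foxi1.L* was 6.01 and 6.82 in **Nog** against 7.16 and 7.23 in **Nog+Dkk**, a rise of 0.78 (SE 0.169, adjusted p = 0.0525), with the **Nog** array of clutch 3 the lowest of the 4. The median of this list lay within 0.01 of 0, and *dlx2.S* had -0.53 (adjusted p = 0.137). The 20 housekeeping probe sets gave 0 calls in limma, with differences from -0.25 to 0.16 and a median of 0.04.

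Some genes of the p53 and DNA damage list rose as well. *Ccng1.L*, which encodes cyclin G1 and is a p53 target in mammals, was 9.16 and 9.99 in **Nog** against 10.32 and 10.55 in **Nog+Dkk**, a rise of 0.86 (SE 0.178, adjusted p = 0.0398). In **Dkk** it was 9.85 and 9.91, in **Ven** 9.15 and 9.45 and in **Dor** 8.88 and 9.78, so the **Nog+Dkk** arrays were the highest of the 10. The kinase gene *plk2*, read for both homeologs together, rose by 0.66 (adjusted p = 0.0525) and the sestrin gene *sesn1.L* by 0.53 (adjusted p = 0.071). Other probe sets of *plk2.S*, *plk2.L* and *sesn1.L* differed by 0.50, -0.04 and 0.48 and were not called. *Ccng1.L* and the called probe sets of *plk2* and *sesn1.L* were the 3 rises among 14 probe sets. There were 0 falls, a median of 0.30 and 10 probe sets higher in both clutches. The call of *sesn1.L* was lost whichever array was left out, that of *ccng1.L* without either clutch 3 array or both, and that of *plk2* in 5 of 6 such settings. The part that the larger total of plasmid played in these values was not tested.

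**Figure D3:**
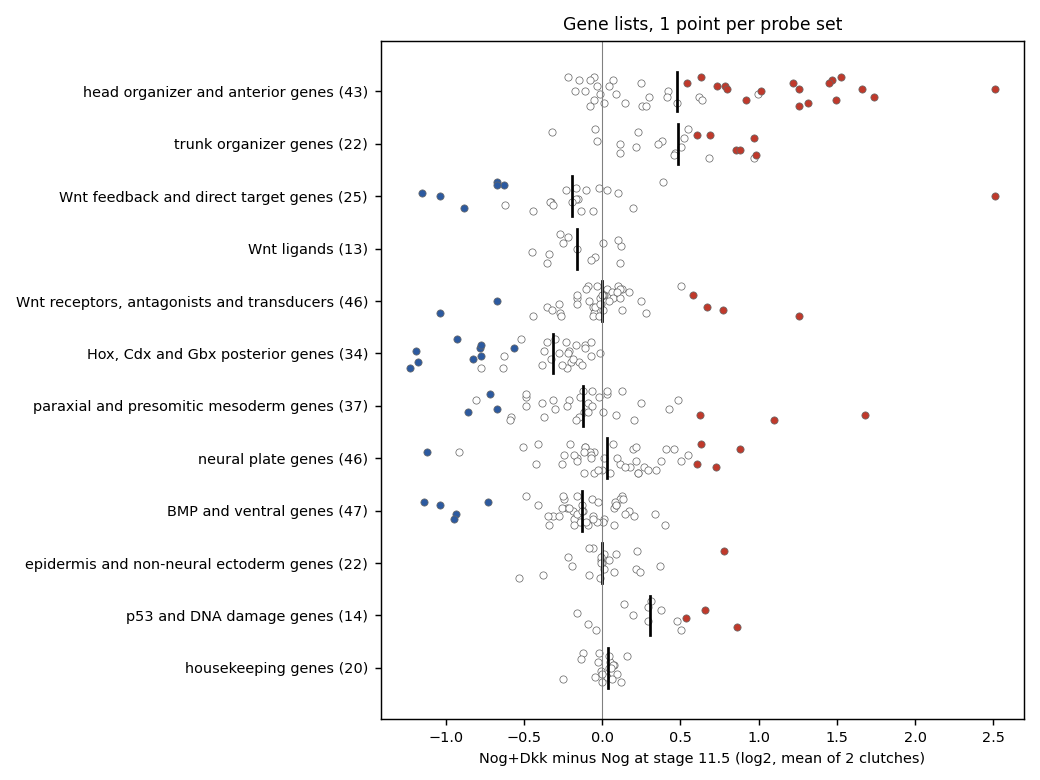
Difference **Nog+Dkk** minus **Nog** at stage 11.5 (horizontal axis, log2, mean of 2 clutches) for each probe set of 12 gene lists, with the number of probe sets in parentheses. Filled points are called (red higher, blue lower), open points are not, and the black bar is the list's median, which runs from -0.31 for the posterior genes to 0.48 for both organizer lists.

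Markers of the tissues that a cut could include were summed on each array. Organizer and axial mesoderm markers (16 probe sets, median 0.56, of which those of *admp.S*, *chrd.1.S*, *gsc.L* and *foxa4.L* named above, 5 in all, rose and 0 fell) summed to an intensity of 2282 and 2576 in **Nog** against 3986 and 4598 in **Nog+Dkk**, with **Dor** at 6657 and 7687 and **Ven** at 1756 and 2537. They moved with the head and trunk lists, with which they share genes. With single arrays left out 1 to 3 of the 16 rose, the fewest without the **Nog+Dkk** array of clutch 3. The part of dorsal tissue in the cut was not tested. Of the germ plasm markers 7 of 10 probe sets were lower in both clutches and 3 higher, with a median of -0.29. *Pgat.L* was 9.19 and 9.32 in **Nog** against 8.50 and 8.82 in **Nog+Dkk** (-0.59, SE 0.137, adjusted p = 0.071), and *grip2.L*, also of the germ plasm, fell by 0.62 (adjusted p = 0.0825) with overlapping groups. These germ plasm genes, named after their values were seen, were the 2 falls, with 0 rises. Without the **Nog** array of clutch 3 or either **Nog+Dkk** array there were 0 falls. The part of vegetal tissue in the cut was not tested. The summed level was 4232 and 3057 in **Nog** against 3957 and 2772 in **Nog+Dkk**. In **Ven** it was 3198 and 3144. Endoderm markers (16 probe sets, 0 rose and 0 fell) summed to 9699 and 9606 in **Nog** against 7407 and 10548 in **Nog+Dkk**, lower in clutch 3 and higher in clutch 4. Epidermis markers (20 probe sets) gave 8521 and 9380 in **Nog** against 8905 and 9801 in **Nog+Dkk**. Of these 0 fell and 2 rose, namely *foxi1.L* and, named after its values were seen, *cyp26c1.S* at 0.69. Whether *cyp26c1.S* marks epidermis in these explants was not tested. Ventral mesoderm and blood markers (13 probe sets, 0 rose and 0 fell) gave 1857 and 2365 in **Nog** against 1651 and 2429 in **Nog+Dkk**.

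The same plasmid was also injected without *noggin*, and **Dkk** minus **Ven** uses other arrays of the same clutches. There 30 probe sets were called higher (0.194%) and 39 lower (0.252%), with 7.99% of all at an unadjusted p under 0.05. The lowered genes were mostly lower in both settings. Of the 32 probe sets lowered in **Nog+Dkk**, 18 (56.2%) were also called lower in **Dkk**, or 46.2% of its 39, and 30 had a difference below 0 there, as 53.6% of all probe sets did. Their median was -0.84 in **Dkk** minus **Ven** and -0.78 in **Nog+Dkk** minus **Nog**. Side by side, *hoxd1* differed by -1.15 and -1.18, *kremen2.S* by -0.84 and -1.15, and *axin2.L* by -0.93 and -0.89. For *hoxd1* the difference between these values was -0.02 (95% interval -0.61 to 0.56), and for *axin2.L* it was 0.04 (-0.54 to 0.62). The raised genes gave other counts. Of the 70 probe sets raised in **Nog+Dkk** 9 (12.9%) were called higher in **Dkk**, or 30% of its 30, and 53 had a difference above 0, as 46.4% of all did. Their median was 0.23 without Noggin against 0.71 with it. These 70 were chosen by their value with Noggin, so the smaller median elsewhere is a description.

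The difference between both settings was tested for each probe set in the same fit. 2 probe sets (0.0129%) passed with a larger effect in the presence of Noggin and 0 with a smaller one in limma, where 1182 (7.63%) had an unadjusted p under 0.05. *Hes7.1.L* rose with Noggin and differed by -0.14 (adjusted p = 0.96) without it, so its change was larger by 1.81 (SE 0.277, adjusted p = 0.0577). *Sinhcaf.L*, which encodes a subunit of SIN3 histone deacetylase complexes, was 8.62 and 9.08 in **Nog** against 9.33 and 9.58 in **Nog+Dkk**, a rise of 0.60 (SE 0.112, adjusted p = 0.0188). In **Ven** it was 9.13 and 9.52 and in **Dkk** 8.75 and 9.14, so within each clutch it was lower in both groups with 1 plasmid than in those with none or both, and its changes differed by 0.98 (SE 0.158, adjusted p = 0.0577). For *otx2.S* the rises were 1.66 with Noggin and 1.07 without, a difference of 0.59 (95% interval 0.01 to 1.17, adjusted p = 0.651). For *crx.L* they were 1.49 and 0.67, a difference of 0.82 (0.45 to 1.19, adjusted p = 0.191).

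**Figure D4:**
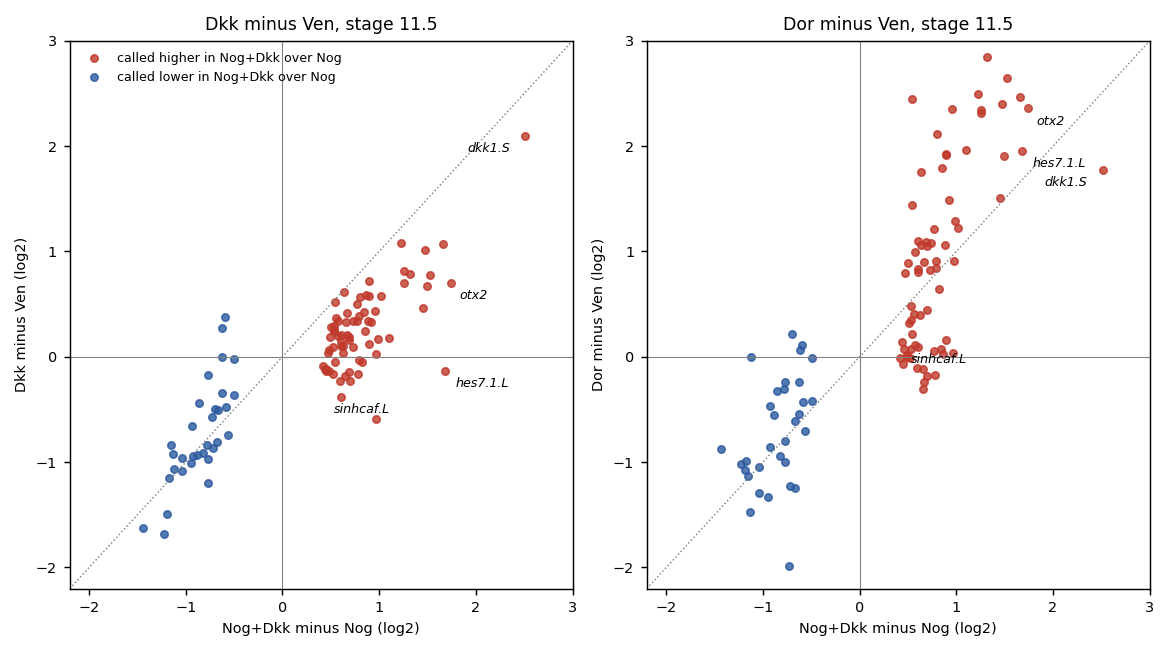
The 70 probe sets called higher (red) and the 32 called lower (blue) in **Nog+Dkk** over **Nog** (horizontal axis, log2), set against **Dkk** minus **Ven** (left, vertical axis, log2) and **Dor** minus **Ven** (right), which use other arrays. The dotted line marks equal values, and *hes7.1.L* lies at 1.68 against -0.14 on the left and against 1.96 on the right.

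Dorsal and ventral explants without plasmid, of the same clutches, gave a scale for these changes. In **Dor** minus **Ven**, a comparison added after the data were seen, 233 probe sets were called higher (1.5%) and 207 lower (1.34%). Of the 70 probe sets called higher in **Nog+Dkk** than in **Nog**, 45 (64.3%, or 19.3% of the 233) were called higher in **Dor** and 0 lower. A difference above 0 was seen in 60 of them, as in 44.2% of all. Of the 32 lowered ones 21 (65.6%; 10.1% of the 207) were called lower in **Dor**, and 0 higher, and 29 had a difference below 0, as 55.8% of all did. Among the called genes that missed the threshold in this comparison were *ccng1.L*, with 0.03 in **Dor** minus **Ven**, *foxi1.L* with -0.18, *sinhcaf.L* with 0.09 and, of the lowered ones, *pax3.S*, which lay within 0.01 of 0.

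At stage 10, in clutches 1 and 2, the injected gene was the one probe set called. *Dkk1.S* was called (0.00646%), higher by 2.21 (SE 0.328, adjusted p = 0.0416), and 0 probe sets were called lower in limma, where 1005 (6.49%) had an unadjusted p under 0.05. For this transcript the stages differed by 0.30 (SE 0.464, adjusted p = 0.831). At stage 10 *otx2.S* differed by 0.72 (adjusted p = 0.748) and *crx.L* by 0.28 (adjusted p = 0.748). Several genes that fell at stage 11.5 were dim at stage 10, where *hoxd1* was 5.44 and 5.3 in **Nog** of clutches 1 and 2 and *kremen2.S* 2.86 and 2.83. The 70 probe sets raised at stage 11.5 had a median of 0.03 at stage 10, with 41 of them above 0 (54.2% of all), and the 32 lowered ones 0.11, with 8 below 0 (45.8%). The median of all probe sets there was 0.01. The list medians at stage 10 were 0.21 for the head genes, 0.07 for the trunk genes, 0.04 for the Wnt feedback genes and 0.16 for the posterior genes. The medians of the Wnt feedback and the posterior genes lie on the other side of 0 from their stage 11.5 values. That of the Wnt feedback genes was close to the median of all probe sets, and only 13 of the 34 posterior probe sets had a mean log2 value of at least 6. No member of either list passed the test of the difference between the stages, so a reversal is not shown. The difference between the stages passed the test for 3 probe sets (0.0194%), all with the larger value at stage 11.5, and for 0 in the other direction, with 1579 (10.2%) at an unadjusted p under 0.05. They were *hes7.1.L* (2.03, adjusted p = 0.0139), *crx.L* (1.21, adjusted p = 0.0172) and *crx.S* (1.18, adjusted p = 0.0191). Because each stage had its own clutches, stage and clutch cannot be told apart, and 2 of the stage 10 arrays (**Nog+Dkk** and **Dkk**) have clutch 2 in their titles and clutch 1 in another field. The title was used.

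**Figure D5:**
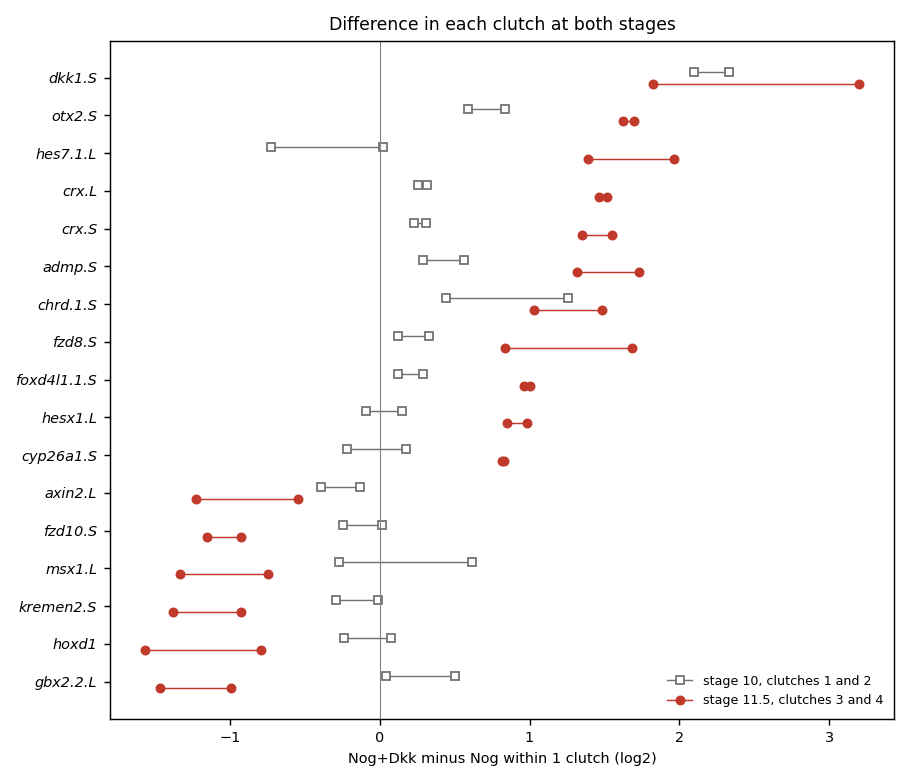
Difference **Nog+Dkk** minus **Nog** within each clutch (horizontal axis, log2) for 17 probe sets, at stage 10 (open squares, clutches 1 and 2) and stage 11.5 (filled circles, clutches 3 and 4), joined by a line. The *dkk1.S* values of both stages lie between 1.83 and 3.2, whereas *crx.L* lies at 0.28 on average at stage 10 and at 1.49 at stage 11.5.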

How the data were processed

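Each pooled explant sample was hybridised to 1 Affymetrix array. The authors made the deposited intensity values with RMA (version not given in the sources used here) and left them on a linear scale. They were log2 transformed, and 120 control probe sets of 15611 were left out. The limma package (3.58.1, R 4.3.3) was used on 20 arrays in 10 groups plus the clutch, with 8 residual and 9.82 prior degrees of freedom. The pairing comes from the labels: deviations of the **Nog** and **Nog+Dkk** arrays of 1 clutch from their group means correlated at 0.801. Rank products used the exact product of 2 ranks. The small number of arrays limits the precision.

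Of the tested probe sets 9304 had 1 symbol, 195 several and 5992 none, from a table of the array's probes. 2 symbols were updated, and 9 names came from the study's tables. Homeologs (.L and .S) can share signal. The text names the injected genes, up to 15 called probe sets per direction, up to 4 per list and all head and trunk genes. Others are stated as named later, and some genes that the rule would name are not reported here. The members and lists were chosen with earlier results of these data known, and the rule that joins duplicated genes and homeologs to a list was added after values were seen.

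On simulated data for the main comparison (15491 probe sets), limma recovered 100% of changes of 1 and of 2 on the log2 scale, and 9.91% of its calls were false. For the difference between both settings it recovered 95% and 100%, with 11.8% false. The simulation drew independent normal noise with limma's own variances around the fitted means, so good recovery was built in. It does not measure how well the model suits these arrays. Changes below 1, as most calls were, were not simulated. Plots were made in Python 3.11 with matplotlib 3.10.9. The alternatives were no clutch block, fewer arrays, each array or clutch left out, a stricter threshold, another variance prior, 2 other normalizations, a minimum level and a pseudocount of 16.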

Additional observations from a re-analysis of the deposited data

Results flagged for a closer look

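5 differences between settings passed their own test. For *hes7.1.L* the difference between mixtures with and without *dkk-1* was higher with Noggin than without it by 1.81 (log2, SE 0.277, adjusted p = 0.0577). It was higher at stage 11.5 than at stage 10 by 2.03 (SE 0.277, adjusted p = 0.0139). On average it was below 0 without Noggin and at stage 10. In each of the 2 clutches with Noggin at stage 11.5 it was above 0.
The change of *sinhcaf.L* differed by 0.98 (SE 0.158, adjusted p = 0.0577) between the settings with and without Noggin.
The rises of *crx.S* and *crx.L* were larger at stage 11.5 than at stage 10 by 1.18 (SE 0.180, adjusted p = 0.0191) and 1.21 (SE 0.177, adjusted p = 0.0172), and both were higher in 2 of 2 clutches at stage 11.5. Since the stages came from different clutches, both are confounded here.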

How the results depend on the processing

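For **Nog+Dkk** minus **Nog** at stage 11.5 (70 higher, 32 lower), limma without the clutch block called 0 and 0, and this pairing also decided the 2 calls for the settings with and without Noggin and the 3 for the stages (0 each without it). With only the stage 11.5 arrays the counts were 24 and 2, and 0 for the settings. With only the 4 arrays compared they were 199 and 167, from 1 residual degree of freedom. At an adjusted p under 0.05 they were 42 and 18, and 0 for the settings. With a mean log2 value of at least 6 the lowered ones were 19, and with log2(value + 16) 16.
Leaving out an array or a clutch gave 17 to 83 higher and 4 to 51 lower, with the fewest without the **Nog+Dkk** array of clutch 3 and the most without clutch 4. With a whole clutch out, the spread comes from stage 10 alone. These fits called 9 to 24 larger and 10 to 21 smaller effects with Noggin, and 10 to 28 larger and 26 to 31 smaller effects at stage 11.5. For the settings, a trended and robust prior gave 7 larger and 4 smaller, the level minimum 7 and 5, and the pseudocount 1 larger. For the stages cyclic loess gave 1 larger. The cause of these shifts was not tested.
All 102 called probe sets kept their direction in every alternative that tested them. For many of the alternatives this was fixed in advance. A change of block, threshold, variance prior or set of groups leaves the estimate as it is. Leaving out a clutch returns the difference of the other clutch, and all 102 had the same direction in both. Of the 56 named probe sets that were not called, 18 changed sign in at least 1 alternative, among them *hhex.L*, *fzd8.L*, *cer1.S* and *frzb.L*. Of 51 named calls 12 remained with each of the 6 arrays or clutches left out, namely *dkk1.S*, 4 of *otx2*, 3 of *crx*, *hes7.1.L*, *kremen2.S*, *sfrp2.S* and *admp.S*. Rank products at 5% gave 36 higher and 31 lower.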
